A study of Drosophila melanogaster with 9 samples.

Results

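The axon guidance and adhesion genes described here are 36 genes named by symbol, grouped by role as Slit and its Robo receptors with the Commissureless proteins, netrins, semaphorins and plexins, Ephrin and Eph, the Derailed receptors, receptor tyrosine phosphatases, the fasciclins and Neurotactin, N-cadherins, Dscam paralogs, neurexin and teneurins. They were chosen by name, and symbols were matched to the FlyBase identifiers of the table. Of the 36, 35 were in the table of 17421 genes, and Fas1 was not analysed here. All 35 passed the filter on low values and were among the 9384 genes tested. The dpr, DIP, beat and side families, Nrg and Dscam1 do not belong to the list.

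The central nervous system of newly hatched Drosophila melanogaster larvae (the L1 stage) was profiled by sequencing from the 3' ends of transcripts, with 3 libraries for each of 3 genotypes. Canton-S, a wild-type laboratory strain, was the control. The elav5 larvae were homozygous for a deletion allele of elav, and the elav5/fne larvae were homozygous for deletion alleles of both elav and fne. All flies were kept at 25 °C, and larvae were picked as viable homozygotes by a visible marker. elav and fne encode related RNA-binding proteins of neurons that act on the processing of transcripts, including the choice of their 3' ends. A library of fne alone was not analysed here, and differences of strain background between Canton-S and the mutants cannot be told apart from the alleles. The labels do not say that replicates came from separate pools of animals, so p-values measure the spread between these libraries, which may be technical.

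Growing axons steer by secreted and membrane-bound cues that attract or repel the growth cone through receptors on its surface. At the ventral midline of the fly nerve cord, netrins attract axons through Frazzled, whereas Slit repels them through Robo receptors, and Commissureless lowers Robo on the growth cones that cross. Homophilic adhesion proteins then hold axons in bundles, and cadherins, Dscam proteins, receptor tyrosine phosphatases, neurexin and teneurins act in the choice of layers and partners and in synapse formation.

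Values are given as normalised CPM, the deposited per-gene signal rescaled by 1 constant so that the mean library total is 1000000, and 3 values in a row are replicates 1, 2 and 3. Each library held 15241461 to 18822734 reads assigned to genes, so that 3 reads were worth 0.150 to 0.196 normalised CPM depending on the library. elav averaged 1643 ± 68.3 (SD, n = 3) in Canton-S, 31.2 ± 9.26 in elav5 larvae and 45.3 ± 22.6 in elav5/fne, and fne averaged 5041 ± 546, 4696 ± 219 and 375 ± 130, so the targeted genes followed the labels. Differences are log2 changes of normalised CPM + 1, which understate the change of low genes, and a gene is called where limma's test, adjusted by Benjamini-Hochberg over all 9384 genes, gave p below 0.05.

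In elav5, 4 of the 35 members changed against Canton-S. Ptp99A and Fas2 fell, and comm and Ptp10D rose. These 2 higher calls are 5.71% of the members, against 8.17% of all tested genes. The 2 lower calls are again 5.71%, against 7.04%, so neither share exceeded the background over all libraries. The median log2 change of the members was 0.06, against 0.02 for all tested genes. The libraries of elav5 and Canton-S did not overlap for 16 members (11 higher, 5 lower), and 35.6% of tested genes were separated in that way. Leaving out any 1 library of Canton-S, or replicate 2 of elav5, took both higher calls away. Without replicate 1 or 2 of elav5/fne Ptp10D remained and comm was lost. Without replicate 1 of elav5 both were lost and robo3 was called (adjusted p = 0.0496 by limma). Leaving out replicate 3 of elav5/fne gave 6 of the 35 members higher, beside 845 of the 9384 tested genes. Without replicate 2 of elav5, 5 of the 35 were lower, beside 519 of 9384. In these 2 fits the members' share was above that of all tested genes.

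In elav5/fne, 20 of the 35 members changed against Canton-S. The 10 that rose were comm2, Fas3, Nrt, robo2, NetA, Ptp10D, comm, drl, Sema1b and Ten-m, and the 10 that fell were Lar, CadN, Dscam3, Ptp99A, Dscam2, PlexA, Nrx-1, Sema2b, Fas2 and Ephrin. Each direction holds 28.6% of the members, against 25.8% of all tested genes called higher and 17.5% called lower. The median log2 change of the members was -0.04, against 0.15 over all tested genes. For 28 members (13 higher, 15 lower) the libraries of the genotypes did not overlap, against 58.3% of tested genes. With TMM scaling the median of all tested genes moved to 0.02 and that of the members to -0.18. Then 8 members were higher and 14 lower, beside 2048 and 2161 of all tested genes. Of the 20 called members, 5 differed by more than 2-fold, namely comm2, Fas3, Nrt and robo2 upward and Lar downward, and none of the 4 members called in elav5 differed by that much there.

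All 4 members called in elav5 were called in the same direction in elav5/fne, in comparisons that share their Canton-S libraries. Between elav5/fne and elav5 directly, 6 members were higher (17.1%, against 18.5% of tested genes) and 7 lower (20%, against 12.3%). The 6 higher were robo2, comm2, NetA, Ptp10D, Fas3 and Nrt, and the 7 lower were Lar, CadN, Dscam2, Dscam3, Sema2b, PlexA and Ephrin. Their median was 0.01, against 0.15 over all tested genes. With TMM scaling 4 members were higher and 10 lower, beside 1304 and 1417 of all genes tested there. With each library scaled to its own total 10 were higher and 6 lower, beside 2087 and 970 of all genes tested there.

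**Figure D1:**
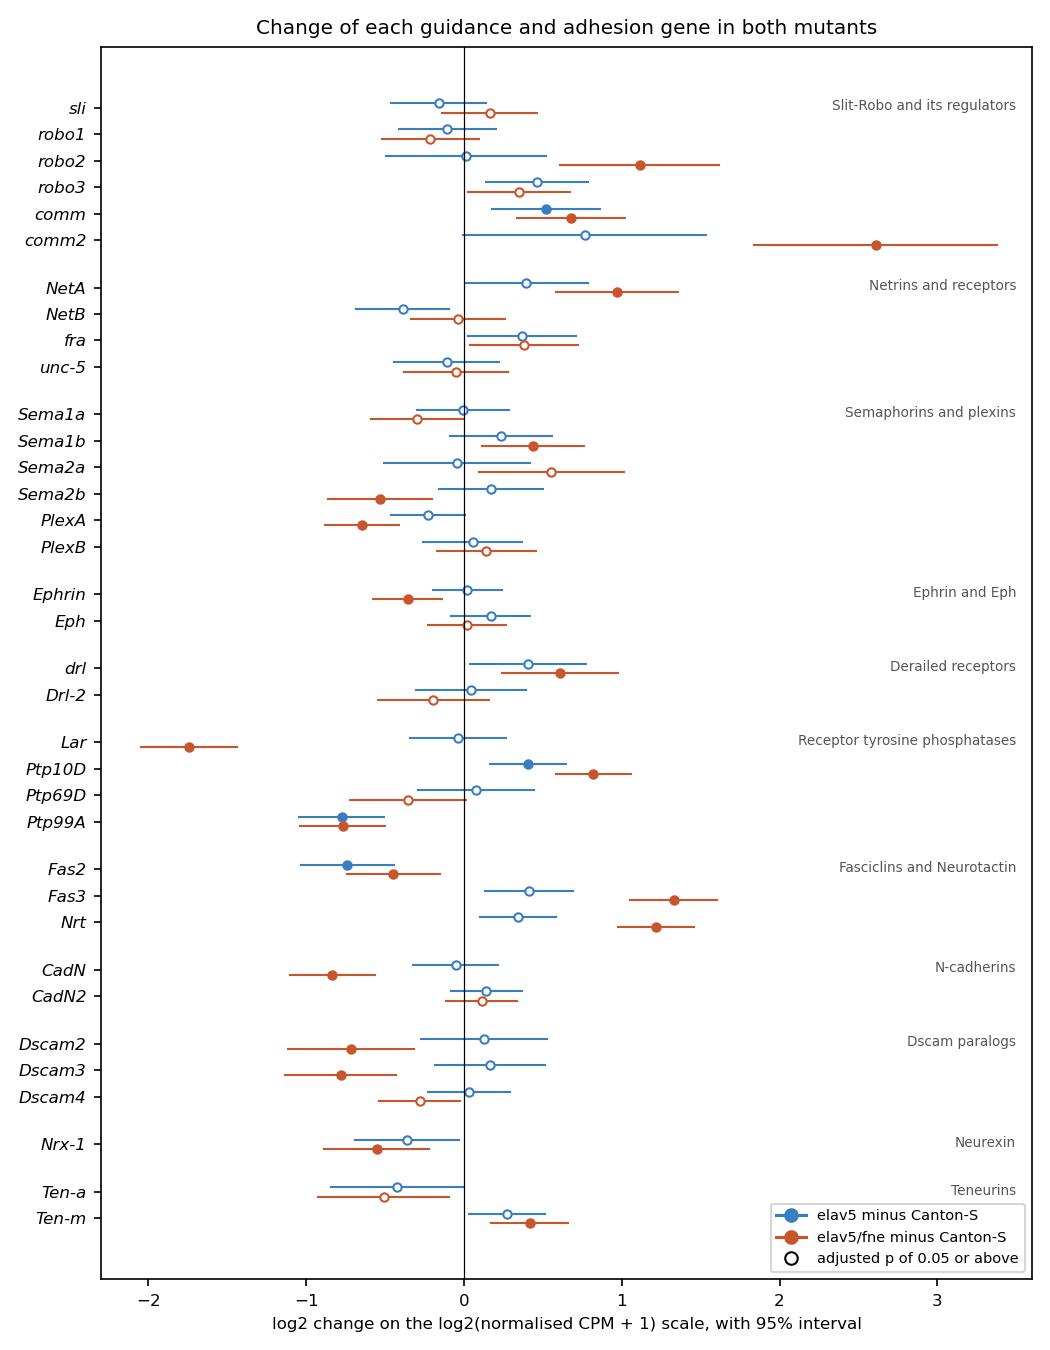
Log2 change of normalised CPM + 1 (horizontal axis) for the 35 members in elav5 and in elav5/fne against Canton-S, with 95% intervals from limma and filled points for called members. In elav5 4 points are filled, and in elav5/fne 20 are, from Lar at -1.74 to comm2 at 2.61.

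Marker levels of several cell types differed between genotypes or between libraries of 1 genotype. Apart from the 2 muscle fits given here, their part in the results below was not tested. Over all tested genes, 25.8% were called higher and 17.5% lower in elav5/fne. The 10 measured neuron markers summed to 7955 to 8307 normalised CPM in Canton-S, 6743 to 7573 in elav5 larvae and 3751 to 4563 in elav5/fne, and all 10 fell in elav5/fne. Of 10 neuroblast markers 8 rose and 1 fell in elav5/fne, with sums of 1290 to 1576 in Canton-S and 1369 to 1828 in elav5/fne. The mean log2 change over these markers was 1.93, 1.76 and 1.44 in the elav5/fne libraries. Of 11 glia markers 2 rose and 2 fell. The 16 muscle markers summed to 1561 to 1733 in Canton-S, 1446 to 9129 in elav5 larvae and 2759 to 10540 in elav5/fne, highest in replicate 1 of elav5 and replicate 3 of elav5/fne, and 7 rose in elav5/fne. Of 8 hemocyte markers 2 rose in elav5/fne, and of 5 cuticle, epidermis and trachea markers 2 rose. The 10 gut markers summed to 15.1 to 72.7 in Canton-S, 15.7 to 876 in elav5 larvae and 39.2 to 1065 in elav5/fne, and the 9 fat body markers to 377 to 653, 126 to 417 and 238 to 607. No gut or fat body marker was called in any comparison, and no muscle marker was called in elav5. Of the gut list, betaTry was at 0 in all libraries. Without the 2 libraries with the highest muscle sums all 20 calls of elav5/fne were kept. The elav5/fne libraries that remained had muscle sums of 2759 and 5611, still above Canton-S, so this fit cannot show the calls without a muscle difference. The elav5 library left out entered this comparison only through the shared estimate of spread. With the muscle level as a covariate 16 were kept, 4 were lost and 3 were gained, by limma with Benjamini-Hochberg adjustment. That level was 1.04, 2.24 and 3.27 log2 above the Canton-S mean in elav5/fne, and -0.17 to 0.11 from it in Canton-S. The ranges are separate, so this fit cannot fully tell muscle level and genotype apart. Of the lost, Fas2 differed by -0.27 and Sema2b by -0.31 (as reported below, -0.45 and -0.53), and Ephrin by -0.30 and Sema1b by 0.42 (-0.36 and 0.44). The gained were Sema2a at 1.06 (adjusted p = 0.000945) and fra at 0.72 (adjusted p = 0.00458), which were 0.55 and 0.38 without the covariate, and robo3 at 0.57 (adjusted p = 0.031), which was 0.35. In bulk tissue, fewer cells of a type and less RNA per cell cannot be told apart.

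Within elav5/fne, replicate 1 was the highest library for 27 of the 35 members, although it was the highest for 36.3% of tested genes. Replicate 3 was the lowest for 29 members and for 40.5% of tested genes. Within elav5, replicate 2 was the highest for 27 members and for 28.4% of tested genes. The members' median log2 deviation from the elav5/fne mean was 0.14, 0.06 and -0.19 in replicates 1, 2 and 3, and replicate 3, the one with the highest muscle sum, was the lowest elav5/fne library for 8 of the 10 members that rose and for 8 of the 10 that fell.

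Among Slit, the Robo receptors and the Commissureless proteins, 3 of 6 rose in elav5/fne and none fell. robo2 (FBgn0002543, 2L:1380086-1420453, minus strand, dm6), a Slit receptor that also places axons in lateral tracts, stood at 18.9, 18.7 and 29.8 normalised CPM in Canton-S, 26.1, 22.3 and 18.7 in elav5 and 57.4, 52.9 and 37.7 in elav5/fne. Its elav5/fne libraries lay above all 6 others, while Canton-S and elav5 overlapped. It rose by 1.11 (SE 0.23, limma adjusted p = 0.0032) against Canton-S and by 1.10 (adjusted p = 0.00513) against elav5, and the elav5 difference was 0.01 (95% interval -0.49 to 0.52). robo2 overlaps lncRNA:CR44898 on the same strand and asRNA:CR44897 on the other.

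comm (FBgn0010105, 3L:15721511-15728430), the sorting protein that keeps Robo1 off the surface of crossing axons, measured 32.7, 32.7 and 35.3 in Canton-S, 48.9, 43.5 and 53.8 in elav5 and 62.5, 59.4 and 43.1 in elav5/fne. Both mutants lay wholly above Canton-S and overlapped each other. The log2 increase was 0.52 (SE 0.15, limma adjusted p = 0.0468) in elav5 and 0.68 (adjusted p = 0.00548) in elav5/fne, and the call in elav5 was lost without any 1 of 8 libraries, all but replicate 3 of elav5/fne. comm2 (FBgn0041160, 3L:15697594-15699850), its neighbouring relative, was near the bottom of the measured range at 1.30, 0.856 and 0.599 in Canton-S, 4.50, 1.57 and 1.38 in elav5, and 12.6, 10.3 and 9.13 in elav5/fne. Even the lowest elav5/fne value was above the highest elav5 value, and every elav5 library was above every Canton-S library. comm2 rose by 2.61 (SE 0.34, limma adjusted p = 0.000251) against Canton-S and by 1.84 (adjusted p = 0.00308) against elav5, and its elav5 difference of 0.77 (95% interval -0.01 to 1.54) was not called.

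The remaining 3 of this group were not called in any comparison over all libraries. The repellent ligand itself, sli, averaged 118 ± 6.38 in Canton-S, 106 ± 14.0 in elav5 larvae and 133 ± 19.4 in elav5/fne (log2 difference 0.16, interval -0.14 to 0.47). Between the mutants sli differed by 0.32 (interval 0.02 to 0.63, limma adjusted p = 0.0994), and by 0.45 (adjusted p = 0.03) without replicate 3 of elav5/fne. robo1, the receptor that bars crossing, averaged 112 ± 9.01, 104.5 ± 17.5 and 96.4 ± 9.97 in the same order (difference in elav5/fne -0.21, interval -0.52 to 0.09). robo3, which like robo2 acts in how far from the midline axon tracts lie, averaged 131 ± 12.4, 181.5 ± 25.1 and 168 ± 25.6. It differed by 0.46 (interval 0.14 to 0.79, limma adjusted p = 0.0592) in elav5 and 0.35 (adjusted p = 0.0758) in elav5/fne. Its 3 elav5 libraries lay above those of Canton-S, and leaving out replicate 3 of elav5/fne brought robo3 past the threshold in both mutants.

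Of the netrins and their receptors, 1 of 4 changed in elav5/fne. NetA (FBgn0015773, X:14604012-14653928), a secreted midline attractant, read 9.57, 8.56 and 8.87 in Canton-S, 15.1, 11.4 and 10.3 in elav5 and 16.4, 19.5 and 19.9 in elav5/fne. The genotypes formed 3 ranges without overlap, lowest in Canton-S and highest in elav5/fne. NetA rose by 0.97 (SE 0.17, limma adjusted p = 0.00155) in elav5/fne, and by 0.57 (adjusted p = 0.032) over elav5. This last call was lost without replicate 2 or 3 of elav5 or replicate 2 or 3 of elav5/fne. It was also lost with no filter, TMM or median of ratios scaling, a replicate block or the muscle covariate. A fit over the 2 mutants alone, edgeR and DESeq2 did not call NetA between the mutants either. In elav5 its difference from Canton-S was 0.40 (interval 0.01 to 0.78, adjusted p = 0.154).

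NetB, the second netrin, averaged 708 ± 19.3 in Canton-S, 547 ± 105 in elav5 larvae and 692 ± 61.1 in elav5/fne. All its elav5 libraries lay below Canton-S (difference -0.39, interval -0.68 to -0.09, limma adjusted p = 0.0789, or 0.0139 without replicate 2 of elav5), and elav5/fne overlapped Canton-S (difference -0.04, interval -0.33 to 0.26). fra, the attractive netrin receptor, averaged 43.9 ± 3.76, 57.3 ± 8.26 and 57.9 ± 9.56, each mutant wholly above Canton-S and neither called. Its elav5/fne difference was 0.38 (interval 0.04 to 0.72, adjusted p = 0.068), and leaving out replicate 3 of elav5/fne gave 0.50 (adjusted p = 0.0305). unc-5, the repulsive netrin receptor, differed by -0.05 (interval -0.38 to 0.28) in elav5/fne.

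Of the semaphorins and plexins, 1 of 6 rose and 2 fell in elav5/fne, and none was called in elav5. Sema2b (FBgn0264273, 2R:16386524-16431758), a secreted semaphorin, measured 535, 534 and 549 in Canton-S, 570.2, 669 and 587 in elav5 and 441, 408 and 288 in elav5/fne. Its 3 ranges did not overlap, with elav5 highest and elav5/fne lowest. The level fell by 0.53 (SE 0.15, limma adjusted p = 0.0161) against Canton-S and by 0.70 (adjusted p = 0.00588) against elav5. Sema2a, the other secreted semaphorin, averaged 65.8 ± 4.18 in Canton-S, 65.0 ± 15.2 in elav5 larvae and 98.7 ± 22.0 in elav5/fne, where every library exceeded Canton-S (difference 0.55, interval 0.09 to 1.01, adjusted p = 0.0533). Without replicate 3 of elav5/fne the difference was 0.75 (adjusted p = 0.0135), and without replicate 1 of elav5 its adjusted p was 0.0195.

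PlexA (FBgn0025741, chromosome 4, 1009895 to 1027101), the receptor of the transmembrane Sema1a, read 305, 309 and 322 in Canton-S, 254, 279 and 266 in elav5 and 227, 199 and 175 in elav5/fne. The ranges descended without overlap from Canton-S through elav5 to elav5/fne. It fell by 0.65 (SE 0.10, limma adjusted p = 0.000821) in elav5/fne, which was also lower than elav5 (fell by 0.42, adjusted p = 0.0134), and its elav5 difference was -0.23 (interval -0.46 to 0.0041, adjusted p = 0.168). Sema1b, a transmembrane relative of Sema1a, stood at 47.9, 39.5 and 54.3 in Canton-S, 58.6, 59.1 and 48.9 in elav5 and 68.4, 66.5 and 57.1 in elav5/fne. Its elav5/fne libraries were above Canton-S and overlapped elav5. The increase of 0.44 (SE 0.14, limma adjusted p = 0.0326) lost its call under TMM scaling (0.29, adjusted p = 0.123) and without replicate 1 or 2 of Canton-S or of elav5/fne. Sema1a averaged 546 ± 34.7, 546 ± 77.5 and 447 ± 58.6 (elav5/fne difference -0.30, interval -0.59 to -0.01, adjusted p = 0.0908), and was called lower under TMM scaling (-0.44, adjusted p = 0.0209). PlexB, the receptor of the secreted semaphorins, differed by 0.14 (interval -0.17 to 0.46).

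Ephrin (FBgn0040324, chromosome 4, 571755 to 580122), the only fly ephrin ligand, stood at 189, 169 and 170.0 in Canton-S, 161, 188 and 186 in elav5 and 129, 143 and 140 in elav5/fne. The elav5/fne values were the lowest of the 9 libraries, and elav5 overlapped Canton-S. It fell by 0.36 (SE 0.10, limma adjusted p = 0.0146) against Canton-S and by 0.38 (adjusted p = 0.0158) against elav5. The first call was lost without replicate 1 of Canton-S, the second without replicate 2 of elav5, and both without replicate 1 of elav5/fne. The first was also lost with the muscle covariate, and the second with each library scaled to its own total. Eph, its receptor tyrosine kinase, averaged 121 ± 14.1 in Canton-S and 122 ± 4.05 in elav5/fne (difference 0.02, interval -0.23 to 0.27).

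drl (FBgn0015380, 2L:19190342-19208621), the Ryk-type Wnt5 receptor of axons in the anterior commissure, measured 192, 197 and 224 in Canton-S, 238, 301 and 276 in elav5 and 369, 342 and 239 in elav5/fne. Both mutants lay above Canton-S and overlapped each other. It rose by 0.61 (SE 0.16, limma adjusted p = 0.0138) in elav5/fne, a call that was lost without replicate 1 of Canton-S or replicate 2 of elav5/fne. The elav5 difference was 0.41 (interval 0.04 to 0.77, adjusted p = 0.127, or 0.0388 without replicate 3 of elav5/fne). Drl-2, its paralog, differed by -0.19 (interval -0.54 to 0.16) in elav5/fne, with overlapping libraries.

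Of the 4 receptor tyrosine phosphatases, which act in motor axon guidance and photoreceptor targeting, Lar and Ptp99A fell and Ptp10D rose in elav5/fne. Lar (FBgn0000464, 2L:19586623-19732069, plus strand) stood at 192, 186.5 and 211 in Canton-S, 174, 216 and 186 in elav5 and 62.3, 65.4 and 47.7 in elav5/fne. Canton-S and elav5 filled the same range, and the highest elav5/fne library was far below it. Lar fell by 1.74 (SE 0.14, limma adjusted p = 1.13e-05) against Canton-S and by 1.71 (adjusted p = 2.13e-05) against elav5, whereas elav5 differed from Canton-S by -0.04 (interval -0.34 to 0.27). CG46244 lies within its span on the same strand and scw on the other.

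**Figure D2:**
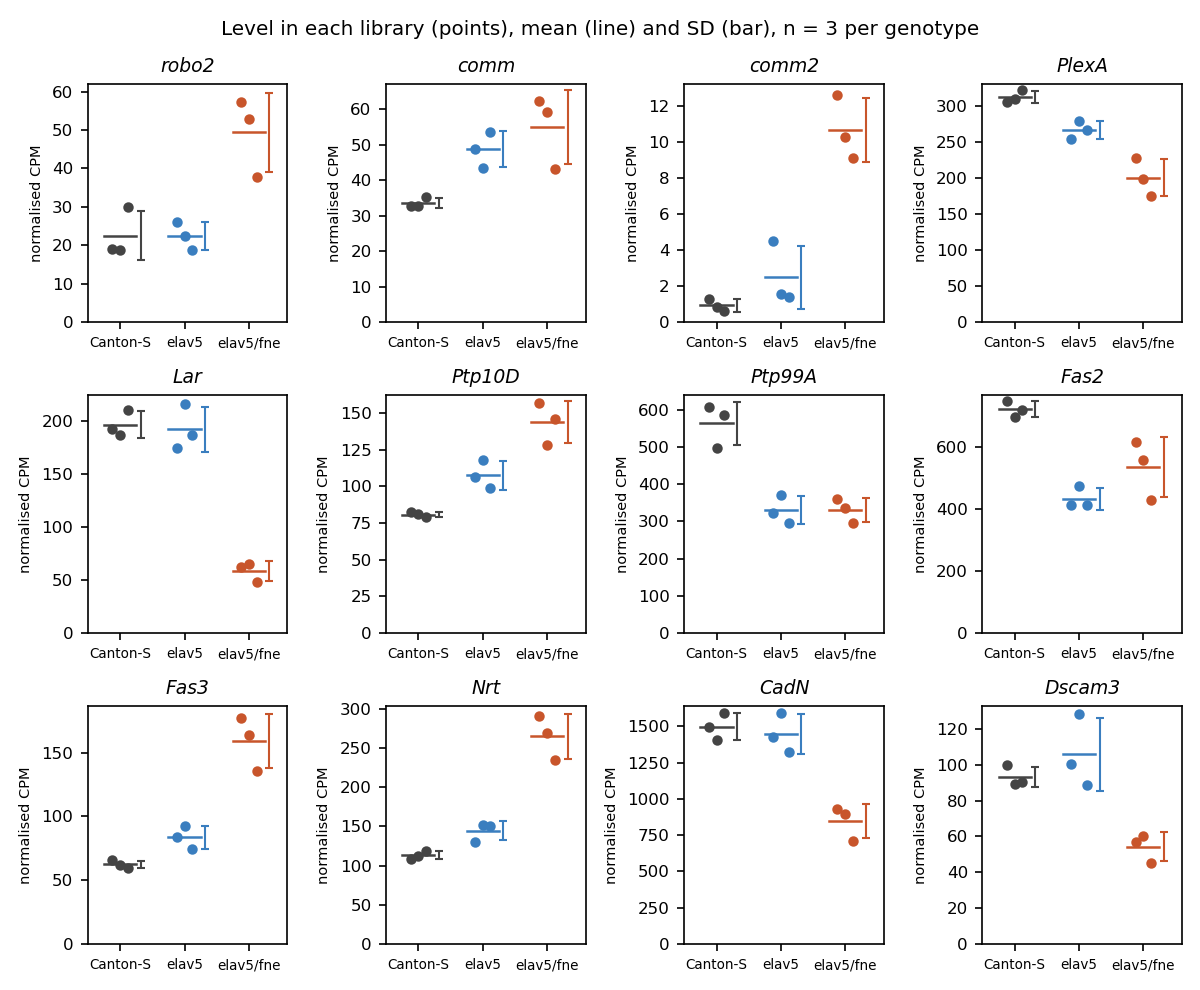
Normalised CPM per library (points, linear axes from 0) with the genotype mean and SD for 12 members. Lar lies between 174 and 216 in Canton-S and elav5 and between 47.7 and 65.4 in elav5/fne, whereas Ptp99A lies between 296 and 370 in both mutants and at 498 or above in Canton-S.

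Ptp99A (FBgn0004369, 3R:29377646-29487131) was lower in both mutants, at 608, 498 and 585 in Canton-S, 322, 370 and 296 in elav5 and 360, 336 and 296 in elav5/fne. The mutants shared 1 range below all Canton-S libraries. It fell by 0.77 in each mutant (SE 0.12, limma adjusted p = 0.00375 in elav5 and 0.00072 in elav5/fne), and the difference between the mutants was 0.01 (interval -0.26 to 0.28). Ptp10D (FBgn0004370, X:11622015-11677338) read 82.2, 80.9 and 78.7 in Canton-S, 106, 118 and 98.5 in elav5 and 156, 128 and 146 in elav5/fne. The 3 ranges ascended without overlap. Its increase was 0.41 (SE 0.11, limma adjusted p = 0.0317) in elav5 and 0.82 (adjusted p = 0.000229) in elav5/fne. The elav5 call was lost without any 1 Canton-S library or replicate 1 or 2 of elav5. The step of 0.41 between the mutants (limma adjusted p = 0.0161) was lost under TMM and median of ratios scaling, with edgeR and without replicate 1 of elav5/fne. It was also lost without replicate 1 of elav5 and replicate 3 of elav5/fne together. Ptp69D averaged 11.1 ± 0.374, 11.8 ± 1.88 and 8.43 ± 0.737, its elav5/fne libraries lowest of the 9 (difference from Canton-S -0.36, interval -0.72 to 0.01, adjusted p = 0.104), and was called lower under TMM scaling (-0.49, adjusted p = 0.0362).

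All 3 members among the fasciclins and Neurotactin changed in elav5/fne. Fas2 (FBgn0000635, X:4132887-4206093), a homophilic immunoglobulin-family protein of axon bundles, measured 748, 698 and 718 in Canton-S, 411, 474 and 414 in elav5 and 616, 559 and 429 in elav5/fne. Every mutant library was below Canton-S, and the mutants overlapped. Fas2 fell by 0.74 (SE 0.13, limma adjusted p = 0.00638) in elav5 and by 0.45 (adjusted p = 0.0201) in elav5/fne, and elav5/fne differed from elav5 by 0.29 (interval -0.0012 to 0.58, adjusted p = 0.122). Its elav5/fne call was lost without replicate 1 or 3 of Canton-S, and without replicate 3 of elav5/fne the difference between the mutants was 0.44 (adjusted p = 0.0117).

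Fas3 (FBgn0000636, 2L:18320102-18393441), a homophilic adhesion protein of target recognition, stood at 65.5, 61.8 and 59.7 in Canton-S, 83.6, 92.1 and 74.6 in elav5 and 177, 164 and 136 in elav5/fne. Nrt (FBgn0004108, 3L:16766072-16777465), a transmembrane adhesion protein whose partner is the secreted Amalgam, read 109, 112 and 119 in Canton-S, 131, 152 and 151 in elav5 and 292, 270 and 235 in elav5/fne. Both genes formed 3 ascending ranges without overlap. Fas3 rose by 1.33 (SE 0.12, limma adjusted p = 3.19e-05) against Canton-S and by 0.92 (adjusted p = 0.000469) against elav5. Nrt rose by 1.22 (SE 0.11, limma adjusted p = 2.28e-05) and by 0.87 (adjusted p = 0.000275). In elav5 the differences of 0.41 for Fas3 (adjusted p = 0.0532) and 0.34 for Nrt (adjusted p = 0.0596) were not called, and both passed without replicate 3 of elav5/fne. Fas3 overlaps CG34171 on the same strand, and Nrt overlaps mus302 on the other strand.

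CadN (FBgn0015609, 2L:17647053-17778340), the neuronal cadherin of photoreceptor and neuropil targeting, measured 1498, 1405 and 1591 in Canton-S, 1428, 1592 and 1321 in elav5 and 929, 893 and 711 in elav5/fne. As for Lar, Canton-S and elav5 overlapped and elav5/fne lay below both. The level fell by 0.83 (SE 0.12, limma adjusted p = 0.00044) against Canton-S and by 0.78 (adjusted p = 0.00104) against elav5. Its neighbour CadN2 averaged 89.3 ± 3.28 in Canton-S, 99.0 ± 11.2 in elav5 larvae and 96.5 ± 2.62 in elav5/fne. The CadN2 libraries of elav5/fne lay above Canton-S, with a difference of 0.11 (interval -0.11 to 0.34, adjusted p = 0.394).

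Of the Dscam paralogs, immunoglobulin-family proteins of which Dscam2 acts in axonal tiling, 2 of 3 fell in elav5/fne. Dscam2 (FBgn0265296, 3L:7159199-7189931) measured 508, 519.5 and 528 in Canton-S, 619, 713.5 and 409 in elav5 and 330.1, 338 and 282 in elav5/fne. elav5 spread on both sides of Canton-S, and elav5/fne was below all 6 others. Dscam3 (FBgn0261046, 3R:17473935-17505667) read 99.7, 89.2 and 90.5 in Canton-S, 100.3, 128 and 88.5 in elav5 and 57.1, 60.4 and 45.0 in elav5/fne, and its ranges were ordered likewise. Dscam2 fell by 0.71 (SE 0.18, limma adjusted p = 0.00964) against Canton-S and by 0.84 (adjusted p = 0.00619) against elav5. Dscam3 fell by 0.78 (SE 0.16, limma adjusted p = 0.00305) and by 0.95 (adjusted p = 0.00158). Dscam4 averaged 157.5 ± 11.0, 162 ± 18.8 and 130 ± 12.2, its elav5/fne libraries below all others (difference from Canton-S -0.28, interval -0.54 to -0.02, adjusted p = 0.0742), and it was called lower under TMM scaling (-0.43, adjusted p = 0.0156).

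Nrx-1 (FBgn0038975, 3R:22468512-22486969), the presynaptic neurexin, read 1057, 1061 and 1076 in Canton-S, 847, 1042 and 643 in elav5 and 739, 713 and 723 in elav5/fne. Every mutant library was below Canton-S, and elav5 spread more widely than the other genotypes. Nrx-1 fell by 0.55 (SE 0.15, limma adjusted p = 0.0133) in elav5/fne. Its elav5 difference of -0.36 (interval -0.69 to -0.03) was not called over all libraries, and without replicate 2 of elav5 it was -0.53 (adjusted p = 0.021). Against elav5, the elav5/fne difference of -0.19 was not called either, and it was -0.37 (limma adjusted p = 0.0229) without replicate 3 of elav5. On the same strand 3 annotated genes overlap Nrx-1, among them mir-4952.

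Of the teneurins, proteins of synaptic partner matching, Ten-m rose in elav5/fne and Ten-a was not called. Ten-m (FBgn0004449, 3L:22293044-22407863) stood at 188, 187 and 221 in Canton-S, 237, 249 and 232 in elav5 and 289, 275 and 233 in elav5/fne. Both mutants lay above Canton-S and overlapped each other. It rose by 0.42 (SE 0.11, limma adjusted p = 0.0116) in elav5/fne, and under TMM scaling the increase was 0.27 (adjusted p = 0.07). Ten-m overlaps lncRNA:CR45962 and lncRNA:CR45965 on the same strand. Ten-a averaged 2086 ± 89.0 in Canton-S, 1599 ± 460 in elav5 larvae and 1468 ± 126 in elav5/fne. Its elav5/fne libraries lay below Canton-S with a difference of -0.51 (interval -0.93 to -0.09, adjusted p = 0.0501), which passed under TMM scaling (-0.66, adjusted p = 0.0166) and without replicate 2 or 3 of elav5. In elav5 Ten-a differed by -0.42 (adjusted p = 0.155), or -0.62 (adjusted p = 0.0374) without replicate 2 of elav5. It spans 291.5 kb with other annotated genes on both strands, so reads of such genes may be assigned to it or to them.

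Paralog pairs were compared as ratios within a library, which no scaling of libraries can move. The 8 pairs are the families of exactly 2 genes on the list, with the semaphorins split by hand into a Sema1 and a Sema2 pair. They were taken with their changes already seen. With 3 libraries against 3 an exact permutation test cannot give a p below 0.1. For all 8 ratios the ranges of elav5/fne and Canton-S were separate, each with a 2-sided exact p of 0.1 (0.133 after Benjamini-Hochberg adjustment over the 24 tests run). The share of other gene pairs separate in this way was not computed. Of single tested genes, 58.3% did not overlap between these genotypes. The log2 ratio of comm2 to comm went from -5.26 ± 0.62 (SD, n = 3) in Canton-S to -4.51 ± 0.96 in elav5 larvae and -2.36 ± 0.15 in elav5/fne. Sema2a to Sema2b stood at -3.04 ± 0.08, -3.25 ± 0.31 and -1.94 ± 0.02 in the same order. The netrins gave -6.30 ± 0.10, -5.48 ± 0.37 and -5.22 ± 0.27 for NetA to NetB, and both mutants were above Canton-S.

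CadN2 to CadN went from -4.07 ± 0.12 in Canton-S to -3.87 ± 0.06 and -3.12 ± 0.18, with only elav5/fne separate from Canton-S. For Ten-m to Ten-a the values were -3.40 ± 0.08, -2.70 ± 0.39 and -2.47 ± 0.04. Sema1b to Sema1a (-3.54 ± 0.19, -3.29 ± 0.12 and -2.80 ± 0.06) and PlexB to PlexA (-2.94 ± 0.18, -2.65 ± 0.07 and -2.14 ± 0.06) were separate between every 2 genotypes. Drl-2 to drl fell from -0.43 ± 0.19 to -0.79 ± 0.17 and -1.24 ± 0.09. In 7 of the 8 pairs the gene with fewer reads in Canton-S gained on its paralog in elav5/fne, and in the Derailed pair drl, which already had more reads, gained on Drl-2. Pairs outside the list were not compared.

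**Figure D3:**
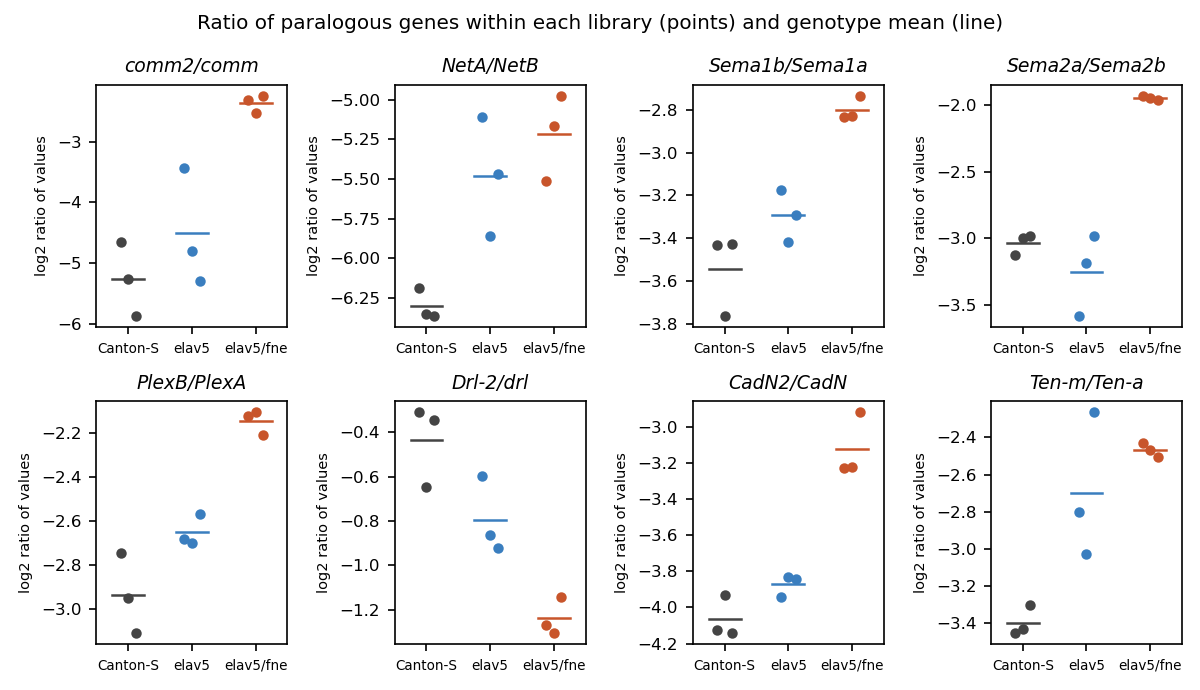
Log2 ratio of the genes of each of 8 paralog pairs in every library (points) with the genotype mean (line). The elav5/fne points are separate from the Canton-S points in all 8 panels, by 2.90 for comm2 to comm and by -0.81 for Drl-2 to drl.

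The members are long genes with long annotated 3' untranslated regions (UTRs). Their median span was 35.1 kb, against 2.99 kb over 8908 tested protein-coding genes, and their longest annotated 3' UTR had a median of 1893 nucleotides (295 to 5933), against 320. Among the 10 members that rose in elav5/fne this median was 1314 nucleotides, among the 10 that fell 2721 and among the other 15 it was 1543. Over all tested protein-coding genes it was 352 for those called higher, 562 for those called lower and 267 for the rest. comm2, with the largest increase of the members, has the shortest annotated 3' UTR among them at 295 nucleotides, and Lar, with the largest decrease, has 1907. An annotated gene overlaps 11 members on the same strand and 18 on either strand, and without the strand setting their shared reads cannot be told apart. The values are given per gene and not per 3' end, so a shift between ends cannot be read from them. Whether reads past annotated ends were counted is not given, so the values need not cover every end of a gene. The part of such reads in the changes of the members was not tested.

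**Figure D4:**
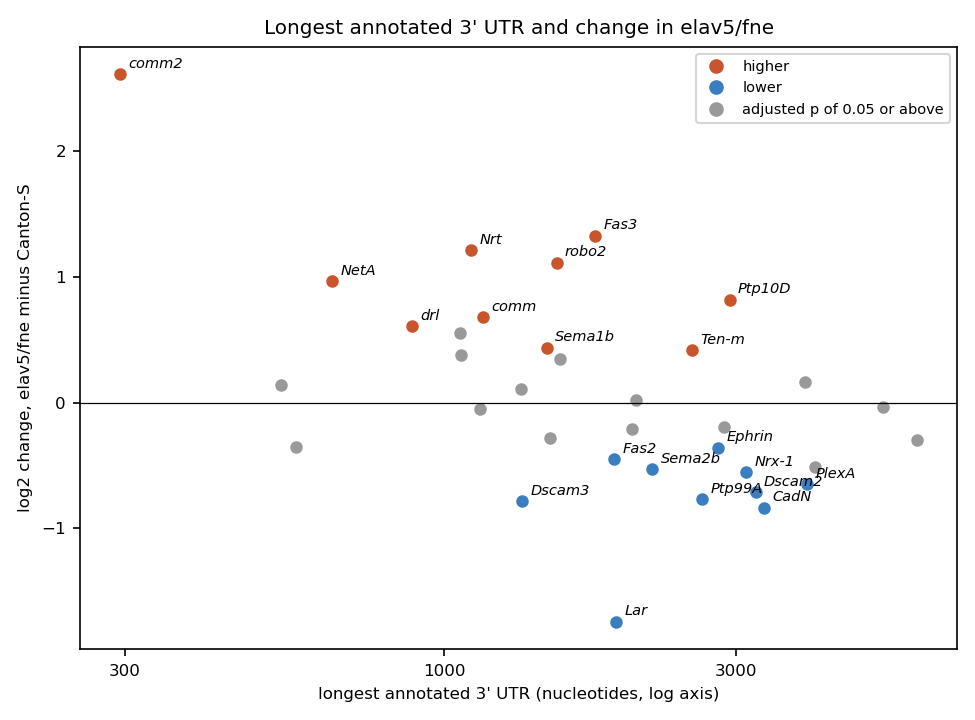
Longest annotated 3' UTR of each member in nucleotides (log axis) against its log2 change in elav5/fne against Canton-S, coloured by call. The 10 members that fell have annotated 3' UTRs of 1340 to 3915 nucleotides, and the 10 that rose have 295 to 2929.

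Other genes of the same pathways were counted from 3 lists. Of 20 further guidance cues, receptors and cofactors, 7 were higher (35%, against 25.8% of all tested genes) and 4 lower (20%, against 17.5%) in elav5/fne. In elav5 1 was higher and 1 lower (5% each, against 8.17% and 7.04%). Ranked by p in elav5/fne, the first 4 include stan (the seven-pass cadherin Flamingo), which rose from 55.3 ± 7.72 in Canton-S to 195 ± 26.5 (log2 change 1.80, limma adjusted p = 9.65e-06), with 63.4 ± 5.01 in elav5. The ligand jeb fell from 1202 ± 145 to 485 ± 57.3 (-1.31, adjusted p = 5.81e-05) and its receptor Alk from 1444 ± 67.9 to 789 ± 80.5 (-0.88, adjusted p = 0.0002). The immunoglobulin-family gene tutl fell by 0.87 (adjusted p = 0.000802).

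Of 20 genes of growth cone signalling, 5 were higher (25%, against 25.8% of all tested genes) and 3 lower (15%, against 17.5%) in elav5/fne, and 2 were higher in elav5 (10%, against 8.17%), all near the background. Among those with the smallest p, the kinase msn rose by 0.58 (limma adjusted p = 0.000519) and the GTPase Cdc42 by 0.77 (adjusted p = 0.00159) in elav5/fne, and msn also rose in elav5, by 0.32.

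The list of further adhesion proteins has 24 tested genes and includes tok, a protease. Of these 24, 9 were higher (37.5%, against 25.8% of all tested genes) and 7, tok among them, lower (29.2%, against 17.5%) in elav5/fne. In elav5 5 were higher (20.8%, against 8.17%). The secreted protease tok fell from 48.6 ± 3.13 in Canton-S to 4.23 ± 0.859 in elav5/fne (-3.26, limma adjusted p = 1.35e-06), with 44.3 ± 7.48 in elav5. shg, which encodes E-cadherin, rose from 31.1 ± 3.02 to 121 ± 3.95 (1.93, adjusted p = 4.47e-06) and by 0.44 (adjusted p = 0.0425) in elav5. Nlg1, a neuroligin and so of the family of neurexin partners, stood at 0.351 to 0.604 in Canton-S and 0.0655 to 0.196 in elav5. In elav5/fne it stood at 8.82 to 12.1 (2.90). It is among the 9 higher, but it passed the filter on low values only through its elav5/fne libraries. Its elav5 values were at or below the level of 3 reads. fred, an immunoglobulin-family gene, fell from 208 ± 13.0 to 66.4 ± 15.4 (-1.66, adjusted p = 6.28e-05).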

How the data were processed

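The members, the lists of other genes and the tests were chosen with earlier results of these data known. Libraries were made from 40 ng of total RNA with the Lexogen QuantSeq REV kit, per the labels' protocols, and dm6 is the genome build per the submitters' processing notes. Not given in the sources used here are the aligner, counter, gene models, strand setting and treatment of reads past annotated ends. The deposited unit is a signal, namely whole reads per gene over 1 factor per library: dividing each value by the smallest value above 0 of its library gave a whole number, within 0.1, for 100% of values. The values were rescaled by 1 constant to a mean total of 1000000 (normalised CPM), which keeps the authors' scaling. Of 17421 identifiers, 17251 were named from gene tables, and coordinates are those of the Ensembl BDGP6.54 annotation, which uses dm6 coordinates. The 170 others held 2.57% to 4.08% of each library.

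Genes whose mean reached 1 normalised CPM over the 9 libraries were tested with limma 3.58.1 (trend, R 4.3.3) on log2(value + 1), with genotype as the only term. Recovered reads were tested with edgeR 4.0.16 and with DESeq2 1.42.0. In elav5/fne against Canton-S, edgeR called 8 members higher and 14 lower, beside 2008 and 2081 of all tested genes. The pipeline was tested on simulated data. Members called in either mutant are given per library; of each other list, up to 4 genes with the smallest p are named, and marker lists are given as counts and ranges. Some genes that this rule names are not reported here. Of the list entries, Fas1, scb, hbs, para, Nck and Caps could not be matched. Alternatives were other pseudocounts, filters, scalings and tests, a replicate block, a muscle covariate and leaving out libraries. Ratios of paralogs were tested by exact permutation with scipy 1.17.1.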

Additional observations from a re-analysis of the deposited data

How the results depend on the processing

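In elav5/fne against Canton-S, 14 of the 20 called members kept their call in each of the 23 alternatives that could test them (comm2 falls under the filter at a mean of 5), and called members did not change sign in any comparison. The other 6 were Sema1b, Ten-m, Ephrin, Fas2, drl and Sema2b. The members' counts there were 8 to 13 higher and 7 to 14 lower, beside 1817 to 2687 and 1182 to 2161 of all tested genes. In elav5 against Canton-S, Ptp99A and Fas2 kept their calls throughout, and comm and Ptp10D did not. Between the mutants 10 of the 13 called members kept their call in every alternative that could test them, and NetA, Ptp10D and Ephrin did not. Of uncalled members, 14 of 31 in elav5, 5 of 15 in elav5/fne and 8 of 22 between the mutants changed sign in at least 1 alternative, so their directions are not established.

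The 2 members higher in elav5 became 1 with a pseudocount of 5, with no filter, with TMM scaling and with edgeR, 0 with scaling to the library total, 6 with DESeq2, 4 without replicate 1 of elav5 and replicate 3 of elav5/fne, and 5 with the muscle covariate. Leaving out 1 library gave 0 to 6 higher and 2 to 5 lower. Scaling to the library total gave 4 lower members and 1184 lower genes in elav5 (661 as reported). It gave 10 members and 2087 genes higher in elav5/fne than in elav5. Over all tested genes, the 767 higher in elav5 became 1313 with DESeq2, leave-one-out counts were 406 to 845 higher and 290 to 687 lower, and edgeR gave 1071 genes higher in elav5/fne than in elav5 (1734 as reported). The cause was not tested.

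Same-numbered libraries were compared by the correlation of their deviations from the genotype means. It was 0.199, 0.000555 and 0.141 for elav5 with Canton-S, and -0.249, -0.0952 and -0.242 for elav5/fne with Canton-S. Between the mutants it was -0.697, 0.181 and -0.316. With 3 libraries per genotype, and muscle sums that differed within both mutants, these values cannot show whether replicate numbers mark shared batches. With the replicate block, 0 members were higher and 2 lower in elav5 (496 and 413 of all genes), and 9 were higher and 10 lower in elav5/fne (2135 and 1429). At these depths comm2 in Canton-S, at 0.599 to 1.30 normalised CPM, is the member nearest the level of 3 reads.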
